A study of Mus musculus with 2 samples.

Results

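The 10 proximal microRNA (miRNA) genes of the imprinted Dlk1-Dio3 domain on mouse chromosome 12 were examined in embryonic kidney. They are the miRNA genes in or beside the transcripts Meg3, antisense-Rtl1 and Rian, namely Mir770, Mir337, Mir540, Mir665, Mir431, Mir433, Mir127, Mir434, Mir136 and Mir370. They were taken by name from the 1973 miRNA genes counted in each library, and 9 of the 10 had counts, while Mir136 was not analysed here. Small RNA below 30 nt was sequenced from kidneys of B6NCrl mouse embryos at 15.5 days, healthy and of both sexes. The samples form 1 untreated group of 2 libraries labelled as biological replicates, from pools of 78 embryos (replicate 1) and 62 embryos (replicate 2). Since each library is a pool of whole organs, spread between animals and differences between cell types cannot be seen, and fewer cells of a type cannot be told apart from less RNA per cell. With no second tissue, age or treatment, the data answer what share of reads each gene takes in this organ and how far the pools differ.

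The Dlk1-Dio3 domain is expressed according to parent of origin. The protein-coding genes Dlk1, Rtl1 and Dio3 are active on the paternal chromosome, and the noncoding transcripts Meg3, antisense-Rtl1, Rian and Mirg on the maternal chromosome. The miRNAs of the domain are processed from those maternal noncoding transcripts. In the mouse, miRNAs lying antisense to Rtl1 are known to direct cleavage of the paternal Rtl1 mRNA. Rtl1 itself derives from a retrotransposon and is known for its role in the fetal capillaries of the mouse placenta.

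All 10 genes lie on the plus strand within 54.6 kb of the mm10 (GRCm38) assembly, with positions from GENCODE M21. Mir770 (ENSMUSG00000076451, chromosome 12 from 109563692 to 109563785) lies inside Meg3, in an exon of 1 of the 11 annotated Meg3 transcripts and in an intron of 3. Mir337 (109585789 to 109585885), Mir540 (109586080 to 109586146) and Mir665 (109586314 to 109586407) lie between the end of Meg3 and Rtl1, in no other annotated gene on their strand. Mir431 (109590447 to 109590537), Mir433 (109591715 to 109591838), Mir127 (109592846 to 109592915), Mir434 (109594506 to 109594599) and Mir136 (109595327 to 109595388) lie opposite to the protein-coding exon of Rtl1. The whole Rtl1 gene is on the minus strand from 109589193 to 109600330. Mir370 (109618258 to 109618336) is in an intron of Rian.

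The mature sequences show the relation to Rtl1 directly. RefSeq's table for GRCm38.p6 held both arms of all 10 genes, 20 mature miRNAs of 20 to 26 nt. All 10 arms of the 5 genes opposite to Rtl1 were matched by a perfectly complementary stretch of the Rtl1 coding sequence, and 0 of the other 10 arms were. The 3p arms of Mir127 and Mir431, the genes with the highest counts, are shown each with its site in the Rtl1 transcript. Capitals mark the seed (bases 2 to 8 of the miRNA) and the stretch of Rtl1 that pairs with it.
mmu-miR-127-3p: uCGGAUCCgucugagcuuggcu
Rtl1 site of miR-127-3p: agccaagctcagacGGATCCGa
mmu-miR-431-3p: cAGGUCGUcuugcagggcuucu
Rtl1 site of miR-431-3p: agaagccctgcaagACGACCTg
The site of miR-127-3p covers bases 2642 to 2663 of the Rtl1 transcript ENSMUST00000149046, and that of miR-431-3p bases 5028 to 5049. Each site follows from the gene's antisense position, and no Rtl1 mRNA was measured here.

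The arms of the proximal genes do not form seed families. The 1738 arms in the table carry 1398 distinct seeds, so most arms there have a seed of their own. The 20 arms of the members carry 20 distinct seeds, and 18 of these seeds occur in no other arm of that table. The exceptions are miR-540-3p, which shares its seed with miR-6915-5p, and miR-370-5p, which shares its seed with miR-1193-3p of the distal part of the same domain. The latter pair is shown because both genes were counted here, with the shared seed in capitals.
mmu-miR-370-5p: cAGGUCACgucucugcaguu
mmu-miR-1193-3p: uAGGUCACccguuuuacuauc
Mir370 stood at 173 ± 44.6 CPM (counts per 1000000 reads on miRNA genes, mean ± SD, n = 2 here and below). Mir1193 stood at 435 ± 13.6 CPM. A count covers the whole hairpin, so how much of either came from the arm with this seed was not measured.

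Mir431 and Mir434 have arms that resemble each other within a hairpin. The longest stretch common to the 5p and 3p arms was 10 nt in Mir431 and 9 nt in Mir434, and 4 to 6 nt in the other 8 genes. Over 677 mouse miRNA genes with an arm on each side the median was 4 nt, and 1.33% had 9 nt or more. Capitals mark the common stretch, which occurs 3 times in the Mir434 hairpin.
mmu-miR-431-5p: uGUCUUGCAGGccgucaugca
mmu-miR-431-3p: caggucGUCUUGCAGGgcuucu
mmu-miR-434-5p: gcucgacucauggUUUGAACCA
mmu-miR-434-3p: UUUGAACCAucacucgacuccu
No member hairpin shares a stretch of 20 nt with another miRNA locus. Among counted genes, 4 of the 35 distal genes did, and 929 of all 1894 with a name. Reads that match several loci, 27.1% and 26.6% of the reads in the libraries, are in no gene's count. Hairpins of the 10 genes are 62 to 124 nt long, with a GC content of 40.3% in Mir136 to 70.2% in Mir770.

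The libraries held 7434182 (replicate 1) and 5863293 (replicate 2) reads on the strand of an annotated miRNA gene. A count of 0 in them allows up to 0.404 and 0.512 CPM. Both this limit and the intervals below describe counting error alone. Marker miRNAs were set beside the tissue label. With no second tissue, they cannot tell kidney from another organ with the same miRNAs. All 9 miRNAs listed for kidney epithelium, of the miR-200 and miR-30 families, were present at 5.22% and 5.98% of counts. The 5 Hox-cluster miRNAs took 26.1% and 22.6%. Markers of other tissues were low but detected in both libraries. The liver miRNA Mir122 took 0.0319% and 0.0628%, and the striated muscle list 0.103% and 0.0700%, with 3 of 8 counted genes at 0 (Mir1a-1, Mir133a-1 and Mir133a-2). The neural list took 0.0502% and 0.0638%, with 3 of 6 counted genes at 0 (Mir9-2, Mir124a-1 and Mir124a-3). A gene with copies elsewhere can stand at 0 through the reads set apart. The erythroid list took 0.0339% and 0.0466%, and the endocrine list 0.134% and 0.198%. The part of such cells in the levels below was not tested.

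The 9 counted genes together took 0.614% of miRNA gene reads in replicate 1 (45614 reads, 95% exact binomial interval 0.608 to 0.619) and 0.833% in replicate 2 (48851 reads, 0.826 to 0.841). All 9 of 9 reached 1 CPM in both libraries, where 20.0% of all 1973 genes did. At 100 CPM in both libraries there were 8 of 9, against 8.77% of all genes, and at 1000 CPM 2 of 9, against 4.11%. The members thus span the middle and upper part of the detected range, from rank 47 to rank 219 by mean CPM.

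The genes opposite to Rtl1 supplied most of these reads. The 4 of them with counts held 83.3% of the members' reads in replicate 1 (82.9 to 83.6) and 83.6% in replicate 2 (83.3 to 83.9). The 3 genes before Rtl1 held 13.96% and 13.2%, Mir370 held 2.31% and 2.46%, and Mir770 in Meg3 held 0.445% and 0.704%. These shares do not depend on the library total, and the order of the 4 groups was the same in both pools.

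**Figure D1:**
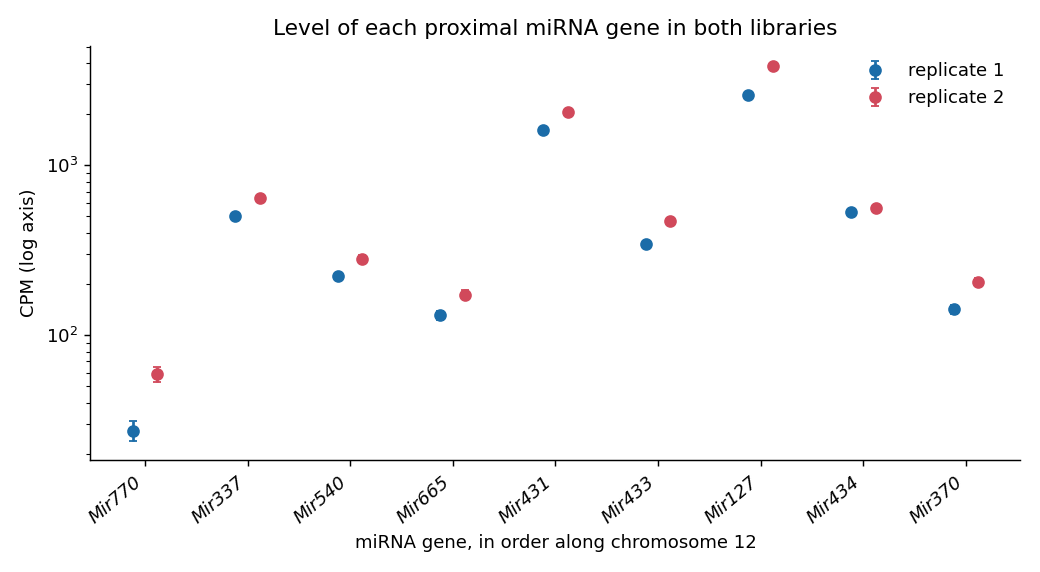
Level of each of the 9 counted genes in CPM (log axis), in order along the chromosome; points are the libraries and bars the 95% exact binomial intervals. Mir127 and Mir431 stand highest in both libraries and Mir770 lowest, and replicate 2 lies above replicate 1 for each gene.

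Mir127, whose loss in mice is known to disturb the labyrinth of the placenta, was the highest member. It had 19433 reads or 2614 CPM in replicate 1 (2577 to 2651) and 22665 reads or 3866 CPM in replicate 2 (3816 to 3916). The intervals do not overlap, so the pools differed by more than counting error at this depth. Its mean was 3239.8 ± 885 CPM, rank 47 among 1973 genes. The genes next to it in mean level were Mir342 above, at 3240.3 ± 1191 CPM, and Mirlet7b below, at 3114 ± 464 CPM, both within the spread of Mir127. The most abundant gene of the files, Mir10a, stood at 167241 and 140739 CPM.

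Mir431, a miRNA known from mouse muscle progenitors, was next. It had 12033 reads or 1619 CPM (1590 to 1648) in replicate 1 and 12128 reads or 2068 CPM (2032 to 2106) in replicate 2, with a mean of 1844 ± 318 CPM and rank 64. Mir127 exceeded Mir431 in either library, with a ratio of 1.61 (1.58 to 1.65) in replicate 1 and 1.87 (1.83 to 1.91) in replicate 2, and the ranges of the 2 genes over the libraries do not overlap. Together they made up 68.98% and 71.2% of the members' reads.

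Mir433 and Mir434 stood lower among the genes opposite to Rtl1. Mir434 had 3947 reads (531 CPM, 514 to 548) in replicate 1 and 3307 reads (564 CPM, 545 to 584) in replicate 2. Its mean was 547 ± 23.4 CPM. Mir433 had 2574 reads (346 CPM, 333 to 360) and 2747 reads (469 CPM, 451 to 486), with a mean of 407 ± 86.5 CPM. The level of Mir434 lay above that of Mir433 in both libraries, by 1.53 and 1.20 times, without overlap of their ranges.

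**Figure D2:**
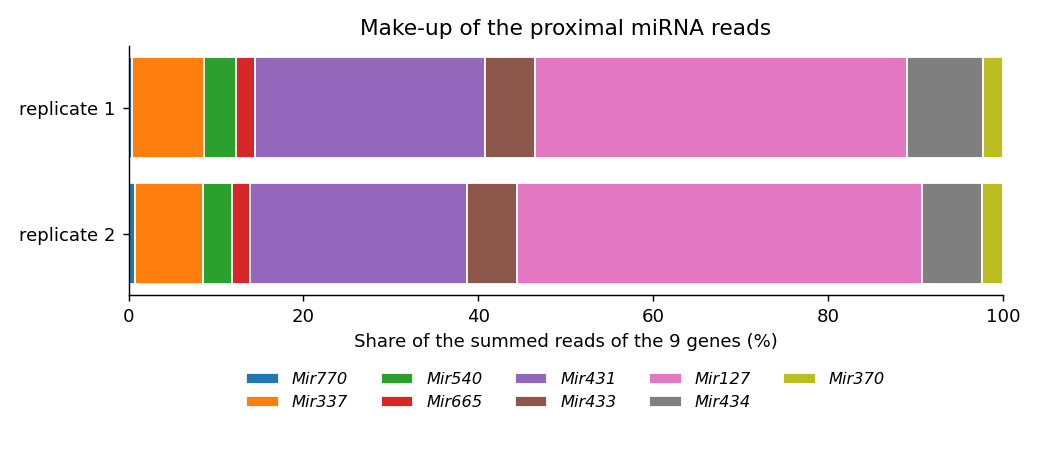
Share of the summed reads of the 9 counted genes taken by each gene (%), with a bar for each library. Mir127 takes 42.6% in replicate 1 and 46.4% in replicate 2, and Mir431 26.4% and 24.8%, while Mir434 takes 8.65% and 6.77%.

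Within the members' reads the make-up differed between the pools. Mir770 took 0.445% (0.386 to 0.510) in replicate 1 and 0.704% (0.632 to 0.782) in replicate 2. Mir127 took 42.6% (42.1 to 43.1) in replicate 1 and 46.4% (45.95 to 46.8) in replicate 2. Mir434 took 8.65% (8.40 to 8.91) and 6.77% (6.55 to 7.00), and Mir431 26.4% (25.98 to 26.8) and 24.8% (24.4 to 25.2). For these 4 genes the intervals do not overlap. For Mir433 (5.64% and 5.62%), Mir665 (2.14% and 2.08%), Mir540 (3.62% and 3.38%) and Mir370 (2.31% and 2.46%) the intervals overlap. Mir337 took 8.21% (7.96 to 8.47) and 7.76% (7.52 to 8.001), with intervals that also overlap. Overlap of intervals does not test a difference, so whether the shares of these genes shifted was not tested.

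Mir136 lies opposite to Rtl1 like Mir127, but its own level was not analysed here. GENCODE M21 gives the identifier ENSMUSG00000070129, version 2, to Mir3071 on the minus strand, and that gene covers all 62 nt of Mir136. The files hold version 1 of this identifier, with 765 and 700 reads on its own strand and 0 and 1 on the opposite strand. That is 111 ± 11.7 CPM. The strand that the older annotation gave to this identifier is not given in the sources used here, so these reads could not be assigned to Mir136 or to Mir3071. The arms below, with the complementary stretch in capitals, show that strand alone separates the genes.
mmu-miR-136-5p: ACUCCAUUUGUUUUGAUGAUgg
mmu-miR-3071-3p: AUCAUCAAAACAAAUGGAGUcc

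The 3 genes between Meg3 and Rtl1 lie within 1 short stretch, with gaps of 194 nt and 167 nt, and their levels stepped down along it. Mir337 had 3746 reads (504 CPM, 488 to 520) in replicate 1 and 3791 reads (647 CPM, 626 to 667) in replicate 2. Mir540 had 1649 and 1652 reads, or 222 CPM (211 to 233) and 282 CPM (268 to 296). Mir665 had 974 and 1015 reads, or 131 CPM (123 to 140) and 173 CPM (163 to 184). The means were 575 ± 101, 252 ± 42.4 and 152 ± 29.8 CPM, in the order of the genes along the chromosome, and no range over the libraries overlaps another.

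Mir370 and Mir770 flank the other members. Mir370, the only member in Rian, had 1055 reads (142 CPM, 133 to 151) and 1202 reads (205 CPM, 194 to 217). Mir770, the only member in Meg3, had 203 reads (27.3 CPM, 23.7 to 31.3) in replicate 1 and 344 reads (58.7 CPM, 52.6 to 65.2) in replicate 2, with a mean of 43.0 ± 22.2 CPM. With the fewest reads it also has the widest intervals relative to its level. The highest member stood above Mir770 by a ratio of 95.7 in replicate 1 and 65.9 in replicate 2.

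By mean CPM the order was Mir127, Mir431, Mir337, Mir434, Mir433, Mir540, Mir370, Mir665 and Mir770. Of the 8 pairs of neighbours in this order, 6 had ranges over the libraries that do not overlap. Mir337 and Mir434 overlapped and changed places, with a ratio of 0.949 (0.907 to 0.993) in replicate 1 and 1.15 (1.09 to 1.20) in replicate 2. Mir370 and Mir665 overlapped as well, with ratios of 1.08 (0.992 to 1.18) and 1.18 (1.09 to 1.29). Mature miRNAs are of nearly equal length, so reads are compared between genes without a correction for length. How fully different sequences are recovered in a library was not measured, so the order is one of reads. Divided by hairpin length, the order differed only in that Mir540 (3.76 CPM per nt) passed Mir433 (3.29 CPM per nt).

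**Figure D3:**
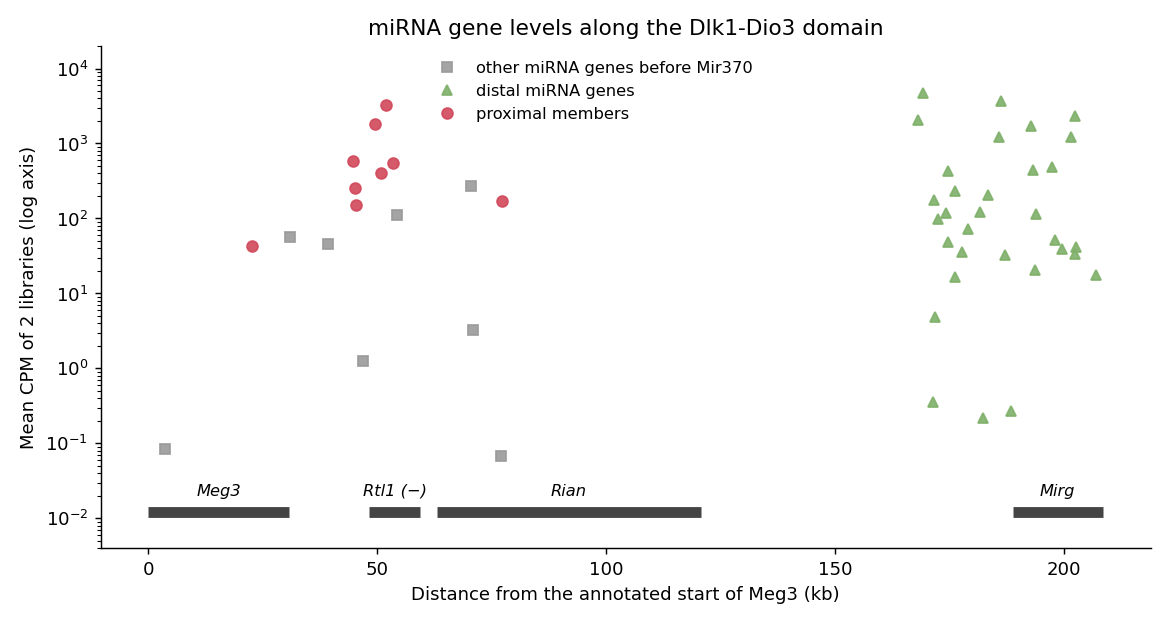
Mean CPM of the 2 libraries (log axis) against distance from the annotated start of Meg3 (kb) for miRNA genes of the domain with at least 1 read; dark bars mark the long transcripts, with Rtl1 on the minus strand. The members opposite to Rtl1 stand between 407 and 3239.8 CPM, in the range of the upper distal genes.

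Other miRNA genes lie among the members. Of 11 such genes between the start of Meg3 and Mir370, 10 were counted, and together they took 0.0452% and 0.0522% of reads, against 0.614% and 0.833% for the members. Without the line over Mir136, whose reads could belong to a member, the other 9 took 0.0349% and 0.0402%. Mir341, in the Rian part, was highest at 269 ± 12.4 CPM, above the member Mir370. The line over Mir136 was described above, and Mir673 (56.1 ± 7.25 CPM) and Mir493 (45.3 ± 17.2 CPM) followed at about the level of Mir770. Mir432, which also lies opposite to Rtl1, and Mir3070b had 0 reads in both libraries.

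Farther along the same strand, the distal list holds the miRNA genes between Mir370 and Dio3. Of its 40 genes 35 were counted, and they took 1.73% and 2.23% of reads, so the members held 26.1% (25.9 to 26.4) and 27.2% (26.95 to 27.4) of the reads of both sets. Another 31670 and 29652 reads lay on the strand opposite to 4 minus-strand genes of the distal part, which is the strand of the distal list. With these reads added to both sets, the share was 22.1% and 23.3%. Whether they come from the distal genes without counts was not tested. The median level was 407 CPM over the 9 members and 72.8 CPM over the 35 distal genes. The members were chosen by name and the distal genes by position, so the medians depend on how the lists were made. The 10 other counted genes lying among the members had a median of 2.25 CPM. At 0 in both libraries stood 3 distal genes and 2 of those 10. The highest distal genes, Mir411 at 4740.5 ± 1221 CPM and Mir487b at 3712 ± 53.7 CPM, stood above Mir127 by mean. Both share 20 nt with another miRNA gene, so their counts may be too low.

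**Figure D4:**
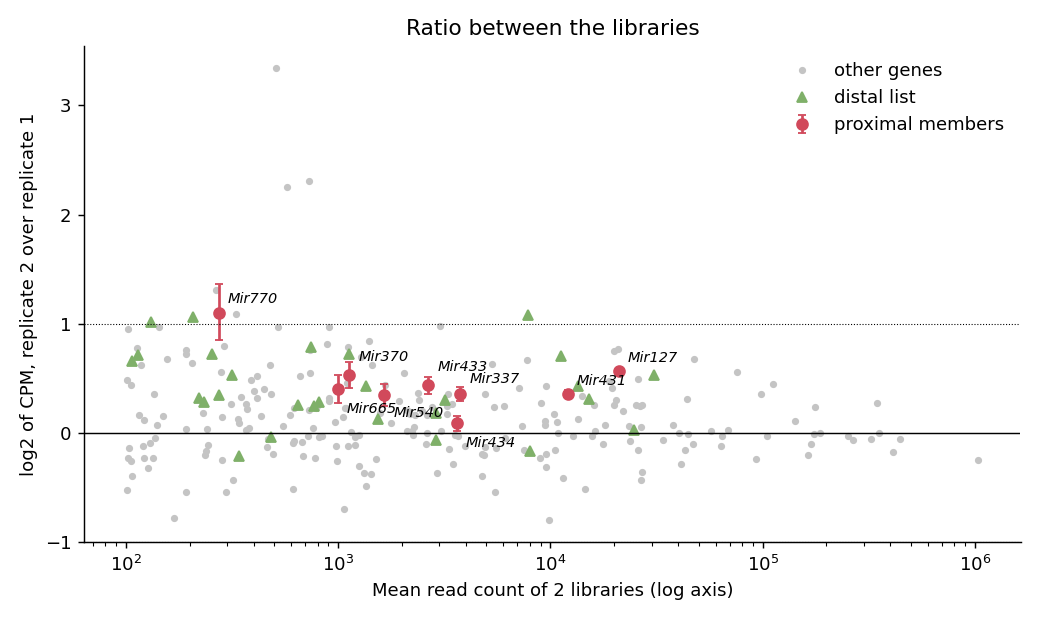
Log2 ratio of CPM of replicate 2 over replicate 1 against the mean read count (log axis) for the 264 genes whose counts average 100 or more; bars on the members are 95% exact binomial intervals and dotted lines mark 2-fold. All 9 counted members lie above 0, Mir434 closest to it, and Mir770 lies above the 2-fold line; with TMM or DESeq2 scaling Mir434 lies below 0 and Mir770 below that line.

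The counted members were all higher in replicate 2 in CPM. This compares 2 libraries of 1 group, has no replicate check, and is given with counting intervals and no p-value. Of 9 members 9 had a ratio above 1, where 62.9% of the 264 genes whose counts average 100 or more did. Their median log2 ratio was 0.40, against 0.13 over the 264 genes and 0.33 over the 28 distal genes at that depth, of which 24 had a ratio above 1. The summed members had a log2 ratio of 0.44 (0.42 to 0.46), and the summed distal genes 0.37 (0.36 to 0.38). Scaling by TMM or by DESeq2 size factors moved every log2 ratio by -0.13 or -0.16. Under these Mir434 stood below 0, at -0.041 and -0.073, while the other 8 counted members stayed above it. The share of all genes above 0 under these scalings was not counted. In unscaled ratios, 132 of the 264 genes lay above their median of 0.13. So did 22 of the 28 distal genes and 8 of the 9 members. Of the marker lists, liver (log2 ratio of the sums 0.98), endocrine (0.56), erythroid (0.46), neural (0.34) and kidney epithelium (0.20) were also higher in replicate 2. Striated muscle was lower, at -0.55, and so were the Hox-cluster miRNAs, at -0.21. Their part in the members' ratios was not tested.

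The log2 ratios of the counted members ran from 0.09 to 1.10. Of 9 members 1 passed 2-fold, in the direction of replicate 2, where 3.41% of the 264 genes and 3 of the 28 distal genes did. At 1.5-fold it was still 1 of 9, against 15.9% of the 264 genes (14.8% in the direction of replicate 2) and 9 of the 28 distal genes. The member past 2-fold was Mir770, with a log2 ratio of 1.10 (0.85 to 1.36), fifth-highest of the 264 genes, from 203 and 344 reads. Its interval includes 2-fold, and with TMM or DESeq2 scaling its log2 ratio was 0.98 or 0.94. Mir127 followed at 0.56 (0.54 to 0.59) and Mir370 at 0.53 (0.41 to 0.65). Mir433 stood at 0.44 (0.36 to 0.51), Mir665 at 0.40 (0.27 to 0.53), Mir337 at 0.36 (0.29 to 0.43), Mir431 at 0.35 (0.32 to 0.39) and Mir540 at 0.35 (0.25 to 0.44). These last 5 have overlapping intervals, and they include genes on either side of the Rtl1 boundary. Mir434 was lowest at 0.09 (0.02 to 0.15), and its interval lies below that of every other counted member, including Mir127, the nearest counted member. Intervals here cover counting error alone, and the median gene of the 264 differed between the pools by 0.25 in absolute log2 ratio.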

How the data were processed

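The authors deposited raw read counts per miRNA gene for each library, in 3 columns (both strands, the gene's strand, the other strand), made from alignments to mm10 with GENCODE M4, per the file notes deposited beside them. Neither aligner nor counter is given in the sources used here. Own-strand counts were divided by their sum over all genes and given as CPM. Reads outside genes (unmapped, matching several loci, in no feature) stayed out of that sum. Identifiers were matched without version to GENCODE M21, which named 1894 of 1973 genes; the 79 others held 5 reads. Hairpin ends may differ between M4 and M21. Sequences came from RefSeq (GRCm38.p6), matched by symbol for 10 of 10 members, and the Rtl1 transcript from GENCODE M21.

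Means and SDs are over 2 libraries. Intervals are exact (Clopper-Pearson) at 95%, and ratios between libraries use the exact binomial interval. With 1 group no contrast was fitted. Ratios were read against all genes whose counts average 100 or more. Their calculation was checked on simulated counts with known folds and counting error, and no other spread between pools. The genes named are all members, the neighbours of the highest member in level, the highest distal genes and the most abundant gene; Mir1193, Mir341, Mir673, Mir493, Mir432, Mir3070b and Mir3071 were named after their values were seen. The members and lists were chosen with earlier results of these data known. Alternatives covered the scaling (TMM from edgeR 4.0.16, size factors from DESeq2 1.42.0), library total, strand, count filter, pseudocount, fold and each replicate left out. R 4.3.3, Python 3.11.15, scipy 1.17.1, pandas 2.3.3, numpy 2.4.6 and matplotlib 3.10.9 were used.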

Additional observations from a re-analysis of the deposited data

Results flagged for a closer look

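Mir337 was the only counted member with reads on the opposite strand beyond what a count of 0 allows (3 reads), with 11 in replicate 1 and 17 in replicate 2, a signal outside the own-strand counts used above. These are 0.293% (95% exact interval 0.146 to 0.523) and 0.446% (0.260 to 0.714) of the reads at Mir337, and the other 8 counted members had 0. Over all genes the opposite strand held 2.16% and 2.33% of reads. Of those, 31670 and 29652 reads lay opposite to 4 minus-strand genes of the distal part. The share over all genes is thus no measure of a usual gene. GENCODE M21 places Mir3544, which was not analysed here, on the minus strand over Mir337. The arms are complementary over 21 nt, shown in capitals, and the origin of the reads was not tested.
mmu-miR-337-3p: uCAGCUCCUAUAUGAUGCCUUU
mmu-miR-3544-5p: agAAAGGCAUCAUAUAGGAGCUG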

How the results depend on the processing

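The summed level of 7234 CPM became 4435 CPM with all aligned reads as the library total, and ran from 6136 to 8332 CPM with each replicate left out. It moved by less than 1 SD with the other 4 alternatives. The summed log2 ratio of 0.44 was 0.31 with TMM, 0.28 with DESeq2 size factors, 0.39 with all aligned reads, 0.40 with Mir10a out of the total and 0.34 without Mir127, the last chosen after the data were seen. The count of members past 2-fold was 1 and became 0 with TMM and 0 with DESeq2 size factors. The log2 ratio of Mir434 turned to -0.041 with TMM and -0.073 with DESeq2 size factors. These follow from the shift that each scaling gives every ratio. Detection at 1 CPM was 9 of 9 with either replicate left out, which had to follow once all 9 reached it in both libraries. No paired analysis was possible because there is 1 group. At 203 and 344 reads, depth limits Mir770 most.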
